A study of Mus musculus with 4 samples.

Results

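The 4 opioid receptor genes Oprm1, Oprk1, Oprd1 and Oprl1 were followed through single-nucleus RNA sequencing of the mouse lateral septum (LS), a forebrain region involved in mood and social behaviour. They were found by their symbols, and all 4 were among the 32285 genes of the count tables. There were 4 libraries, each made from the pooled LS tissue of 3 male mice aged 6 to 8 weeks. The labels gave 2 libraries of C57J mice, 1 of BALB/c mice and 1 of nude mice. Nude mice carry a knockout of Foxn1 on the BALB/c strain and lack T cells, so nude and BALB/c shared a strain background that C57J did not. The C57J 1 library was labelled batch 1 and the other 3 libraries batch 2. Because each library was a pool and BALB/c and nude had 1 library each, errors were spread between libraries and no test was made of nude against BALB/c alone.

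Opioid receptors are receptors on the cell surface that act through inhibitory G proteins, lower cyclic AMP, open inwardly rectifying potassium channels and close presynaptic calcium channels, and so usually quieten the neuron that carries them. Oprm1 encodes the mu receptor, the main target of morphine and of beta-endorphin and enkephalins. Oprd1 encodes the delta receptor, which binds enkephalins, and Oprk1 the kappa receptor, which binds dynorphins. Oprl1 encodes the nociceptin receptor, a relative that binds nociceptin and hardly any classical opioid.

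The receptors are so alike that a part of their coding sequence is shown to let the resemblance be seen. The window of 60 bases below was read from the GRCm38 genome with GENCODE vM21 gene models and covers the end of the third membrane helix and the start of the loop after it. The capitals mark the codons of the conserved aspartate, arginine and tyrosine triplet at which receptors of this class meet their G protein. Each window lay within the coding part of 1 exon.
Oprm1: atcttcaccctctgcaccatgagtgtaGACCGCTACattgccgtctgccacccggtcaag
Oprk1: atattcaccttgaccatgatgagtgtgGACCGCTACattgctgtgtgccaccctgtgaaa
Oprd1: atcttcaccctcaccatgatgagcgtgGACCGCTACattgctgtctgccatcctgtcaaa
Oprl1: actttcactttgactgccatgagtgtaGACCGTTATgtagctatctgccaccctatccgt
The windows are at chr10:6829063-6829122 on the plus strand for Oprm1, chr1:5598768-5598827 on the plus strand for Oprk1, chr4:132117231-132117290 on the minus strand for Oprd1 and chr2:181718555-181718614 on the plus strand for Oprl1. The triplet was written with the same codons in Oprm1, Oprk1 and Oprd1 and with other codons for the last 2 residues in Oprl1. Within the window Oprk1 and Oprd1 shared 53 of 60 bases, Oprm1 and Oprd1 50, and Oprd1 and Oprl1 39. Over the whole coding sequence the identity ran from 64.7% for Oprk1 and Oprl1 to 70.6% for Oprm1 and Oprd1. The longest exact run shared by any transcripts of 2 receptors was 25 bases.

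The genes differed far more in their size than in their coding sequence. Oprm1 spans 279693 bases of chromosome 10 (6758506 to 7038198) with 8037 exonic bases, Oprk1 17666 bases of chromosome 1 with 9151 exonic bases, Oprd1 33761 bases of chromosome 4 with 4021 exonic bases, and Oprl1 5970 bases of chromosome 2 with 3753 exonic bases. Oprm1 overlaps Ipcef1 on the opposite strand over 152403 bases. Whether intronic reads were counted, and by strand, is not given in the sources used here, so reads from Oprm1 and Ipcef1 introns may not be fully told apart. Ipcef1 is therefore given beside Oprm1 where a difference was called.

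The 4 libraries held 12558 to 17025 barcodes and 72912922 to 125998527 UMIs (unique molecular identifiers, 1 per captured RNA molecule). After the quality limits and the removal of doublets 49425 nuclei remained, with a median of 4075 to 8380 UMIs in a library, the highest in BALB/c. Any 2 libraries shared 29 to 63 barcodes, at most 0.478% of the smaller library. Foxn1, the gene disrupted in nude mice, gave 6, 2, 5 and 5 UMIs in C57J 1, C57J 2, nude and BALB/c, so its level could not check the label of the nude library. The nuclei were clustered without the receptors and without the other genes of the opioid pathway, and clusters were named from marker genes, so each name stands for nuclei like that type. The LS class carried its markers (Trpc4, Dgkg, Homer2, Ptpn3, Trhde and Cpne7) at a summed level of 2841 to 2970 UMIs per 1000000 in the 4 libraries, and the highest other class reached 1477. Not every list was so specific. That of GABAergic neurons of medial ganglionic eminence type (2568 to 2886) reached 5739 in oligodendrocyte precursors. That of striatal Drd1 neurons (2611 to 3304) reached 5312 in mural nuclei. In all, 19773 nuclei were LS neurons (4107 to 5754 in a library), and 61 clusters and 13 classes with at least 20 nuclei in every library were ranked. Of these 61, 54 were single neuron clusters. The rest were non-neuronal types, each with all its clusters pooled and counted as 1. LS clusters are called by 2 leading marker genes and clusters of no named type by 2 leading genes.

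Oprm1 was the most abundant of the 4 per exonic base. Levels are UMIs of the gene per 1000000 UMIs of the class or cluster in a library (CPM), and they are a description, since the clusters came from the same nuclei. A run of 4 levels gives C57J 1, C57J 2, nude and BALB/c, always in that order. Over all neurons and per kilobase of exon, Oprm1 had 6.58 to 9.06 CPM in the 4 libraries, Oprl1 4.53 to 5.69, Oprk1 0.825 to 1.52 and Oprd1 0.889 to 1.11. The order depended on the length used, and whether either length is a fit divisor for these counts was not tested. Per kilobase of the whole gene, Oprl1 came first with a mean of 3.24 CPM and Oprm1 the third with 0.226 CPM. With no length divisor and the 31 LS clusters weighted equally, Oprm1 came first with 29.5 to 51.8 CPM in the 4 libraries. Oprl1 followed with 17.0 to 21.3 CPM, Oprk1 with 5.55 to 8.52 and Oprd1 with 1.90 to 2.54. LS neurons were 40.0% of all nuclei and held 56.9% of the UMIs of all genes and 56.8% of the Oprl1 UMIs. They held 33.3% of the Oprm1 UMIs, 39.1% of the Oprk1 UMIs and 37.9% of the Oprd1 UMIs. Striatal Drd1 neurons, the dopamine-excited projection neurons of the neighbouring striatum, held 3.32% of the UMIs of all genes, 11.8% of the Oprm1 and 21.5% of the Oprk1 UMIs. Cholinergic neurons held 0.684% of the UMIs of all genes and 19.6% of the Oprd1 UMIs.

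**Figure D1:**
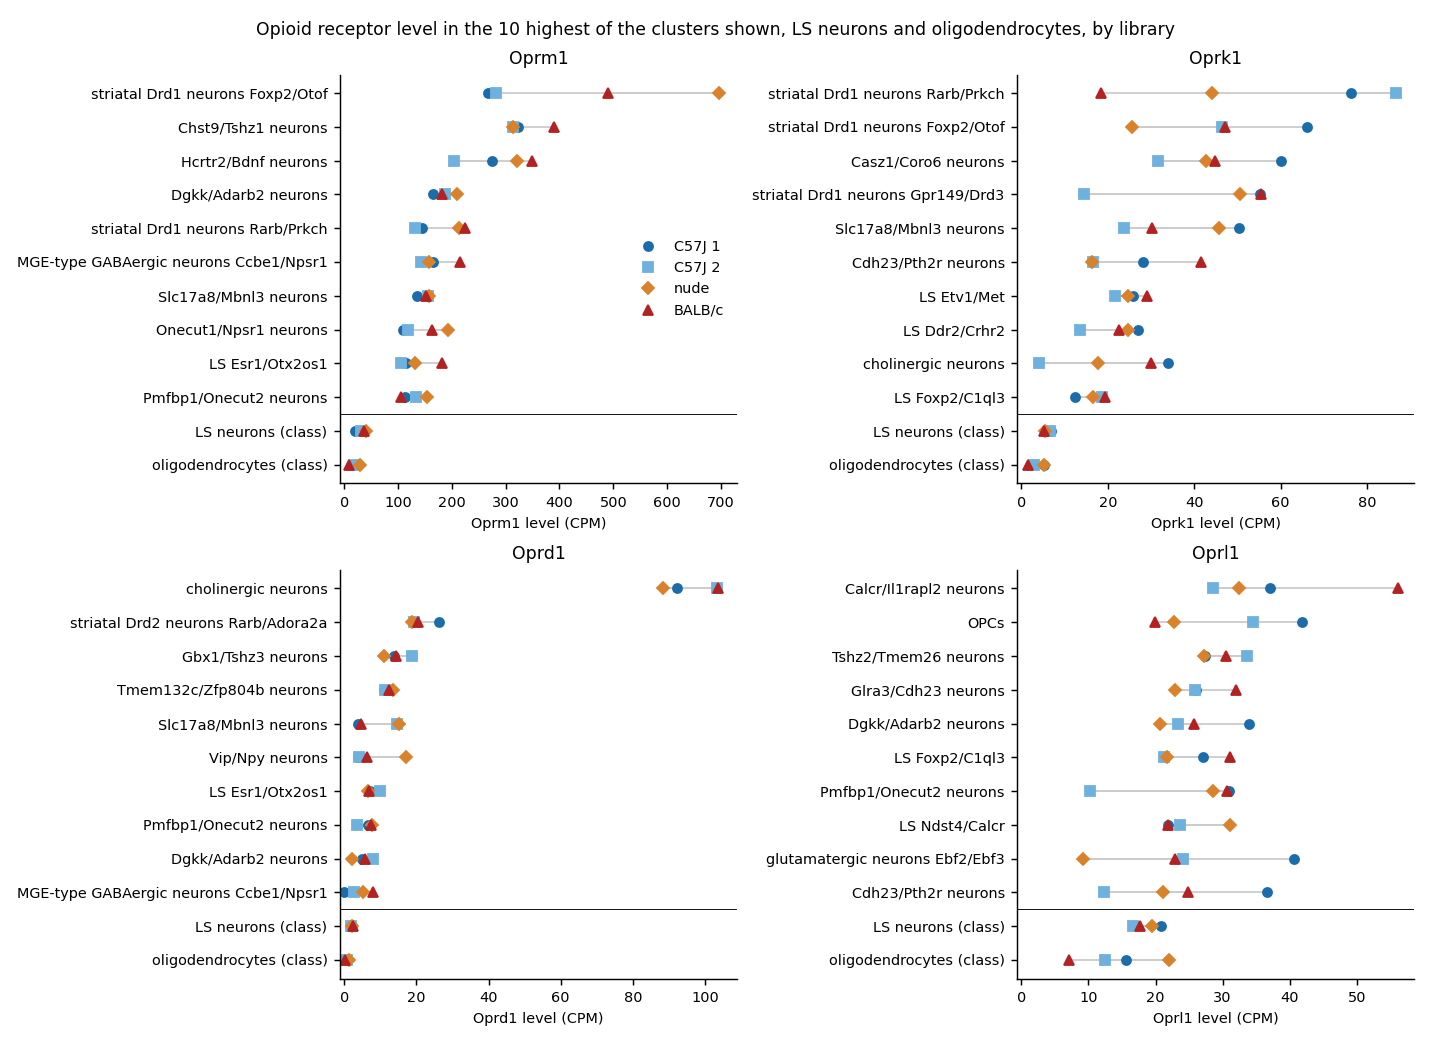
Level of each receptor in CPM (linear axes) in the 10 highest of the clusters shown and, under the line, in LS neurons and oligodendrocytes, with 1 point for each library and a line over their range. Oprd1 in cholinergic neurons stands alone at 88.3 to 104 CPM, the highest Oprm1 and Oprk1 clusters overlap from each to the next, and Oprl1 falls off slowly from 28.6 to 56.1 CPM in its highest cluster.

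Mature oligodendrocytes, a glial type, served as the cell type to compare with. Oprm1 there was 16.7, 18.7, 28.8 and 9.88 CPM. Oprl1 was 15.5, 12.5, 22.0 and 7.13 CPM, Oprk1 1.62 to 5.27 CPM and Oprd1 0 to 1.44 CPM. These levels were highest in nude and lowest in BALB/c for Oprm1 and Oprl1. Astrocytes had a similar Oprm1 level, 9.29 to 24.6 CPM, also lowest in BALB/c and highest in nude. At full depth 86 of 1345 microglia had an Oprm1 UMI, against 221 of 5363 oligodendrocytes. Microglia were the shallower of the 2, with a median of 1625 UMIs against 2351, so the oligodendrocyte level does not stand for all glia. The microglial Oprm1 level in nude was 2.36 times that in BALB/c (31 and 22 UMIs), which was not tested. Most oligodendrocytes of C57J and nude lay in 1 cluster and most of those of BALB/c in another. The oligodendrocyte level is no floor for neurons, since 9 of 29 LS clusters had an Oprm1 level at or below it in all 4 libraries.

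Oprm1 reached its highest levels outside the LS class. In the Drd1 cluster led by Foxp2 and Otof it was 266, 282, 696 and 490 CPM. In the Chst9/Tshz1 cluster it was 323, 313, 314 and 390 CPM. The C57J libraries were the low ones in the first of these clusters, and in the second the 4 libraries were closer together. Neighbours in this order could not be separated, since the ranges of the first 5 clusters overlapped from each to the next. The range of the Chst9/Tshz1 cluster lay entirely above those of 56 of the other 60 clusters. Among classes, striatal Drd1 neurons (150, 163, 308 and 271 CPM) and the GABAergic neurons with markers of the medial ganglionic eminence (164, 143, 157 and 216 CPM) overlapped with each other and lay above all other classes. Striatal Drd2 neurons followed with 71.9 to 82.9 CPM and cholinergic neurons with 50.7 to 67.8 CPM, and these 2 ranges did not overlap.

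LS neurons as a class had little Oprm1, 20.9, 31.4, 41.3 and 36.8 CPM. Each value was above the oligodendrocyte level of its own library, but the 2 ranges overlapped. The class hid a wide spread. Across the 29 LS clusters in the order the mean Oprm1 level ran from 3.74 to 228 CPM with a median of 20.3 CPM. Among the high ones were LS Esr1/Otx2os1 (106 to 182 CPM), which carries the oestrogen receptor gene Esr1, and LS Angpt1/Pax6 (82.0 to 140 CPM), and their ranges overlapped. At the other end, LS Foxp2/C1ql3 held 13 Oprm1 UMIs in all, 2.75 to 5.00 CPM, below oligodendrocytes in each library. In all, 10 of 29 LS clusters were above oligodendrocytes in all 4 libraries, 3 of them by over 3 times, and 9 were at or below them in all 4. Among the 25 other neuron clusters 21 were above in all 4 libraries, 13 of them by over 3 times.

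The share of nuclei with an Oprm1 UMI gave the same picture with less resolution. After each nucleus was thinned to 1000 UMIs, which left out 414 shallower nuclei, 25.3% of the Drd1 Foxp2/Otof nuclei had an Oprm1 UMI (112 of 443, exact Clopper-Pearson 95% interval 21.3 to 29.6). The share was 3.38% in LS neurons as a whole (3.13 to 3.64), against 1.78% in oligodendrocytes (1.44 to 2.17). At full depth the shares were 70.4% in the Foxp2/Otof cluster, 17.3% in LS neurons and 4.12% in oligodendrocytes, with median depths of 7926 UMIs in LS neurons and 2351 in oligodendrocytes. In the Foxp2/Otof cluster 212 of the 312 nuclei with any Oprm1 UMI had at least 2 and the highest nucleus had 18. These intervals cover counting error only.

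**Figure D2:**
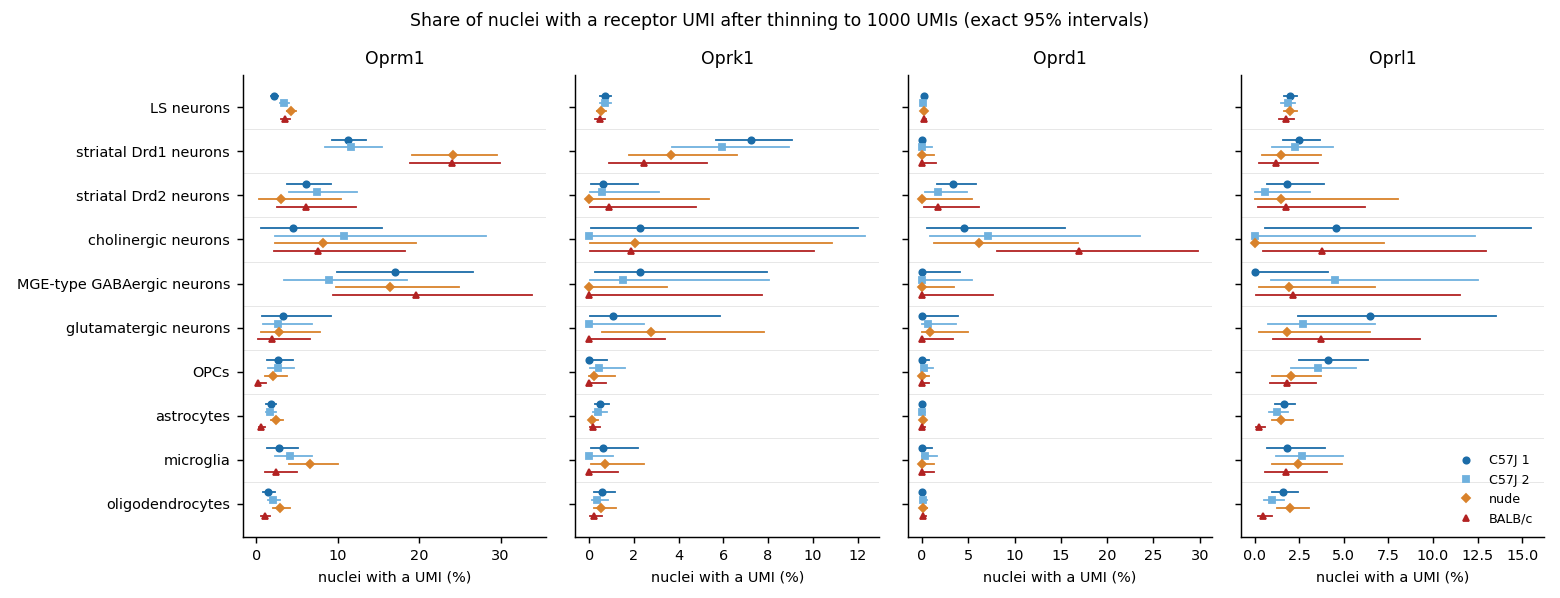
Percentage of nuclei with at least 1 UMI of each receptor after thinning to 1000 UMIs, by class, with 1 point for each library and exact 95% intervals as bars (each panel has its own axis). Oprm1 in striatal Drd1 neurons is at 24.1% in both nude and BALB/c and at 11.3% and 11.6% in the C57J libraries, while Oprl1 in nude is at 2.00% in LS neurons and 2.01% in oligodendrocytes.

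Oprk1 was centred on striatal Drd1 neurons. There it was 69.4, 69.9, 40.5 and 27 CPM, entirely above 11 of the other 12 classes. Only cholinergic neurons, with 33.9, 3.97, 17.7 and 29.97 CPM from 53 UMIs in all, reached into its range. Both C57J libraries were above both libraries of the BALB/c background. Within the class the Rarb/Prkch cluster had 76.2, 86.7, 44.2 and 18.4 CPM and the Foxp2/Otof cluster 66.2, 46.5, 25.5 and 47.0 CPM. The groups did not overlap in the first of these and did in the second. The Casz1/Coro6 cluster, outside both classes, had 31.5 to 60.1 CPM.

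LS neurons as a class had 6.96, 6.55, 5.46 and 5.21 CPM of Oprk1, close to the 1.62 to 5.27 CPM of oligodendrocytes. LS Etv1/Met stood out with 25.8, 21.8, 24.7 and 29.1 CPM. LS Ddr2/Crhr2 followed with 27, 13.5, 24.7 and 22.6 CPM, and Crhr2, a receptor for urocortins, is one of its leading genes. Their ranges overlapped. In all, 7 of 29 LS clusters were above oligodendrocytes in all 4 libraries, and 14 of 25 other neuron clusters. After thinning, 0.602% of LS nuclei had an Oprk1 UMI (0.499 to 0.720) against 0.397% of oligodendrocytes (0.246 to 0.607), so the 2 shares were not separated at this depth.

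Oprm1 and Oprk1 were high in different LS clusters. The 4 LS clusters highest in Oprm1 had mean Oprk1 levels of 0 to 6.22 CPM, and the 4 highest in Oprk1 (LS Etv1/Met, LS Ddr2/Crhr2, LS Foxp2/C1ql3 and LS Ndst4/Foxp2) had mean Oprm1 levels of 3.74 to 11.2 CPM. In the latter, 15 of the 16 Oprm1 values lay below the oligodendrocyte value of the same library. Across the 29 LS clusters the Pearson correlation of log2(CPM + 1) of Oprm1 and Oprk1 was -0.49, and across all 61 clusters it was 0.02. These are descriptions over clusters that share libraries. Within LS clusters at full depth, nuclei with an Oprm1 UMI had an Oprk1 UMI 0.851, 0.863, 0.709 and 0.805 times as often as nuclei without one in C57J 1, C57J 2, nude and BALB/c. These ratios rest on 20 to 29 nuclei with both in a library. After thinning only 0 or 1 nucleus in a library had both, so co-detection could not be compared at equal depth.

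**Figure D3:**
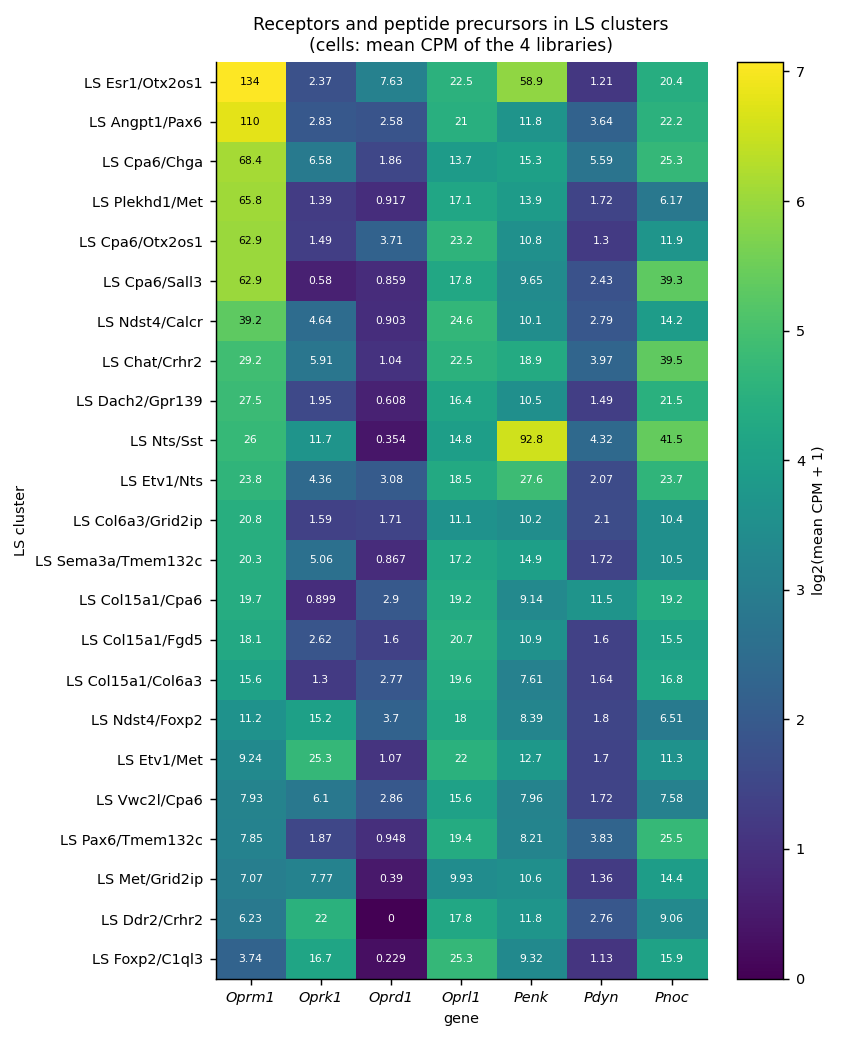
Heat map of the mean level over the 4 libraries of the receptors and 3 peptide precursors in the LS clusters shown, ordered by Oprm1, with the CPM written in each cell and the colour on a log2(mean CPM + 1) scale. LS Esr1/Otx2os1 tops the Oprm1 column (133.8 CPM) and LS Etv1/Met the Oprk1 column (25.3 CPM), and the Oprl1 column changes little from row to row.

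Oprd1 had the narrowest pattern of the 4 receptors. Cholinergic neurons, which release acetylcholine and were marked by Chat and Slc5a7, had 92.3, 103, 88.3 and 104 CPM. All 4 libraries lay entirely above the ranges of all other 60 clusters. Striatal Drd2 neurons were next among classes with 23.0, 17.0, 15.4 and 16.3 CPM, above 11 other classes. The Gbx1/Tshz3 cluster (10.9 to 18.8 CPM) and the Tmem132c/Zfp804b cluster (11 to 13.4 CPM) followed, and their ranges overlapped. Striatal Drd1 neurons had 9 Oprd1 UMIs in all, 0 to 1.86 CPM, so the delta receptor was hardly read there. In the Drd2 class it was read mostly in the Rarb/Adora2a cluster, where 67 of 564 nuclei had an Oprd1 UMI at full depth. That cluster held all Oprd1 UMIs of the Drd2 class in nude and BALB/c (5 and 19).

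LS neurons had 1.98 to 2.57 CPM of Oprd1, entirely above oligodendrocytes (0 to 1.44 CPM), and 7 of 29 LS clusters were above them in all 4 libraries. LS Esr1/Otx2os1 was the highest cluster of the LS class with 6.48 to 10.0 CPM. The Tmem132c/Zfp804b cluster named above was higher, and a limit set after seeing the data kept it out of that class. The LS Chat/Crhr2 cluster, LS neurons with some Chat, had only 5 Oprd1 UMIs (0 to 1.69 CPM), far from the level of the cholinergic class. At full depth 58.0% of cholinergic nuclei had an Oprd1 UMI (101 of 174), against 1.82% of LS nuclei and 0.131% of oligodendrocytes. After thinning the shares were 9.20% (5.35 to 14.5), 0.202% (0.145 to 0.275) and 0.0946% (0.0307 to 0.221). Cholinergic nuclei were also the deepest of these, with a median of 11640 UMIs.

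Oprl1 was broad and low. LS neurons had 20.8, 16.6, 19.5 and 17.7 CPM, and oligodendrocytes had 15.5, 12.5, 22.0 and 7.13 CPM, so the nude oligodendrocytes were above the nude LS neurons. After thinning 2.00% of nude LS nuclei and 2.01% of nude oligodendrocytes had an Oprl1 UMI, while in BALB/c the shares were 1.75% and 0.467%. In LS clusters the mean ran only from 9.93 to 30.7 CPM, and 8 of 29 were above oligodendrocytes in all 4 libraries, none by over 3 times. The highest of the ranked neuron clusters was Calcr/Il1rapl2 with 37.1, 28.6, 32.4 and 56.1 CPM. It was kept out of the LS class by a limit set after seeing the data. Of the classes, oligodendrocyte precursors (OPCs), the dividing cells that give rise to oligodendrocytes, had the highest mean, with 41.8, 34.6, 22.7 and 19.9 CPM. Both C57J libraries were above both others, which was not set against all genes, and the range overlapped that of the next class. The Oprm1 level in OPCs was 6.87 to 27.4 CPM, a range that overlapped those of oligodendrocytes and astrocytes and began below both.

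By the same measure over all 61 clusters, the Pearson correlation of log2(mean CPM + 1), the gene most like Oprm1 of 16204 was Rgs17, at 0.81. Rgs17 encodes a regulator that ends the signal of inhibitory G proteins and lies on the same chromosome as Oprm1, from 5825663 to 5922400, without overlapping it. Ipcef1, on the opposite strand of Oprm1, was second at 0.72, followed by Smyd3 (0.67), Psd (0.67) and Cdh9 (0.66). For Oprk1 the most alike were Rcan2 (0.58), Ppp2r5b (0.55), Mme (0.52), Olfm3 (0.51) and Runx1t1 (0.51), of which Mme encodes neprilysin, a peptidase that cuts enkephalins. For Oprd1 they were Gm11342 (0.61), Car7 (0.60), 2810404M03Rik (0.58), Gm26612 (0.57) and Popdc3 (0.56). For Oprl1 they were Disp2 (0.69), A330040F15Rik (0.67), Cacna1g (0.66), Panx2 (0.66) and Pck2 (0.66), and Cacna1g encodes a low-threshold calcium channel. The clusters share libraries and differ in depth, so no test was made of these likenesses.

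The genes for the peptides that act on the receptors had their own places. Penk, the precursor of enkephalins, was highest in the Drd2 Rarb/Adora2a cluster with 358, 209, 135 and 416 CPM. Among LS clusters Penk was highest in LS Nts/Sst with 76.1, 62.3, 95.5 and 137 CPM. Pdyn, the precursor of dynorphins, was highest in the Drd1 Rarb/Prkch cluster (94.6, 44.8, 60.7 and 106 CPM), which was also the cluster with the highest mean Oprk1 level. Pnoc, the precursor of nociceptin, was highest in LS Nts/Sst with 31.3, 26.7, 40.3 and 67.5 CPM. Pomc, the precursor of beta-endorphin, was at 1.11 to 2.04 CPM in LS neurons and 0.913 to 3.29 CPM in oligodendrocytes.

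The study's question for the strain backgrounds was which genes differ between C57J mice and mice of the BALB/c background. The 2 C57J libraries were compared with nude and BALB/c as 1 group by edgeR's quasi-likelihood test across all genes, and a gene was called at an adjusted p under 0.05 and a log2 fold change over 0.5 in size. With 2 libraries against 2, an exact permutation test of 1 gene could not reach 0.05. In LS neurons none of the 4 receptors was called, where 2.18% of all 18558 genes tested were. Oprm1 was higher by a log2 fold change of 0.61 ± 0.18 (SE, edgeR adjusted p = 0.18). Both libraries of the BALB/c background (41.3 and 36.8 CPM) were above both C57J libraries (20.9 and 31.4 CPM), which was not set against all genes. The log2 fold changes of the others were -0.31 ± 0.17 for Oprk1 (adjusted p = 0.485), 0.26 ± 0.24 for Oprd1 (adjusted p = 0.685) and 0.02 ± 0.15 for Oprl1 (adjusted p = 0.972). With the 31 LS clusters weighted equally the Oprm1 difference was 0.61, 0.62 for nude and 0.60 for BALB/c against C57J. Without C57J 1, which leaves the batch 2 libraries only, the log2 fold change of Oprm1 in LS neurons was 0.36, and without C57J 2 it was 0.90. Each of these fits has 1 C57J library, and without C57J 2 strain background and batch cannot be told apart.

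Oprm1 was called in 6 narrower classes or clusters, each time higher in the BALB/c background, and 5 of them are described here. Over all classes 0.219% of the tests were such calls. In striatal Drd1 neurons, where it was 150 and 163 CPM in C57J and 308 and 271 CPM in nude and BALB/c, it rose by a log2 fold change of 0.92 ± 0.13 (edgeR, adjusted p = 0.00925), where 0.428% of genes were called higher. The Foxp2/Otof cluster of that class, which shares its nuclei, rose by 1.13 ± 0.19 (adjusted p = 0.0270; 0.137% of genes), and there nude was at 696 and BALB/c at 490 CPM. The 2 groups did not overlap in either. In LS Cpa6/Otx2os1 the levels were 34.7 and 41.5 CPM against 92.3 and 83.1 CPM, a rise of 1.19 ± 0.22 (adjusted p = 0.00510; 0.309% of genes). In LS Plekhd1/Met it rose by 1.27 ± 0.24 (adjusted p = 0.0232; 0.24% of genes) and in Casz1/Coro6 neurons by 1.29 ± 0.27 (adjusted p = 0.0136; 0.401% of genes), from 15.4 and 39.6 CPM to 75.2 and 68.6 CPM. The groups did not overlap in any of these 3 clusters either. With 2 libraries against 2, groups can separate without a difference, and the share of all genes that did is not given here. Non-overlap therefore adds no support to these calls.

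The calls were not equally firm. Those in LS Cpa6/Otx2os1 and the Drd1 Foxp2/Otof cluster were made in each of the 4 fits that left out 1 library. That in the Drd1 class was lost without C57J 1 (log2 fold change 0.86). That in Casz1/Coro6 neurons was lost without C57J 1 (0.85) or nude (1.25), and its log2 fold change was larger without C57J 2 (2.20). That in LS Plekhd1/Met was lost without C57J 2 (1.01) or nude (1.14). Each of these fits kept only 1 library in 1 group, and without C57J 2 strain background and batch cannot be told apart. The Gpr149/Drd3 cluster, low in Oprm1 (17.8 to 50.7 CPM), gave 314 of the 968 Drd1 nuclei of C57J 1 and 53 of 354, 31 of 274 and 27 of 245 in C57J 2, nude and BALB/c. Without it the log2 fold change of the Drd1 class was 0.78 (adjusted p = 0.00979), an alternative chosen after seeing the data. By DESeq2 2 of the 6 were called, those in the Drd1 class and its Foxp2/Otof cluster. Oligodendrocyte markers differed between the groups too. The summed level of the 5 oligodendrocyte markers in LS neurons was 294 and 315 CPM in C57J and 210 and 182 CPM in nude and BALB/c, and in striatal Drd1 neurons 507 and 489 CPM against 324 and 260 CPM, the opposite direction to Oprm1, with none of the 5 at 0. In LS Plekhd1/Met the 6 markers of striatal Drd1 neurons summed to 574, 682, 683 and 1195 CPM, highest in BALB/c. Striatal Drd1 neurons were 7.40% of nuclei in C57J 1 and 2.12% to 2.83% in the other libraries, and the part of these differences in the Oprm1 results was not tested.

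The direction was shared widely. Oprm1 could be tested in 25 of the 29 LS clusters, where the log2 fold change was above 0 in 20 with a median of 0.39 and 3 were called, and in 22 of 24 other neuron clusters, all above 0 with a median of 0.51. Cholinergic neurons, a single cluster that was tested as a class and is not among these, were below 0 (-0.15 ± 0.30). Over all genes, 0.421% of the tests in LS clusters and 0.173% of those in other neuron clusters were calls of a higher level. The median log2 fold change over all genes in these fits lay between -0.02 and 0.01. All these fits share the same 4 libraries and are not independent. Some genes of the opioid pathway that were called in none of these clusters also kept 1 direction in nearly all of them. A direction shared between clusters is thus not particular to Oprm1, and how common it is over all genes was not counted. Some clusters with much Oprm1 showed little difference: in Chst9/Tshz1 neurons the log2 fold change was 0.16. In oligodendrocytes it was 0.06 ± 0.46. The Oprm1 level of the nude library was 2.91 times that of the BALB/c library in oligodendrocytes (60 and 61 UMIs), 2.65 times in astrocytes, 1.12 times in LS neurons and 1.14 times in striatal Drd1 neurons. With 1 library each these ratios hold no spread between libraries and were not tested.

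**Figure D4:**
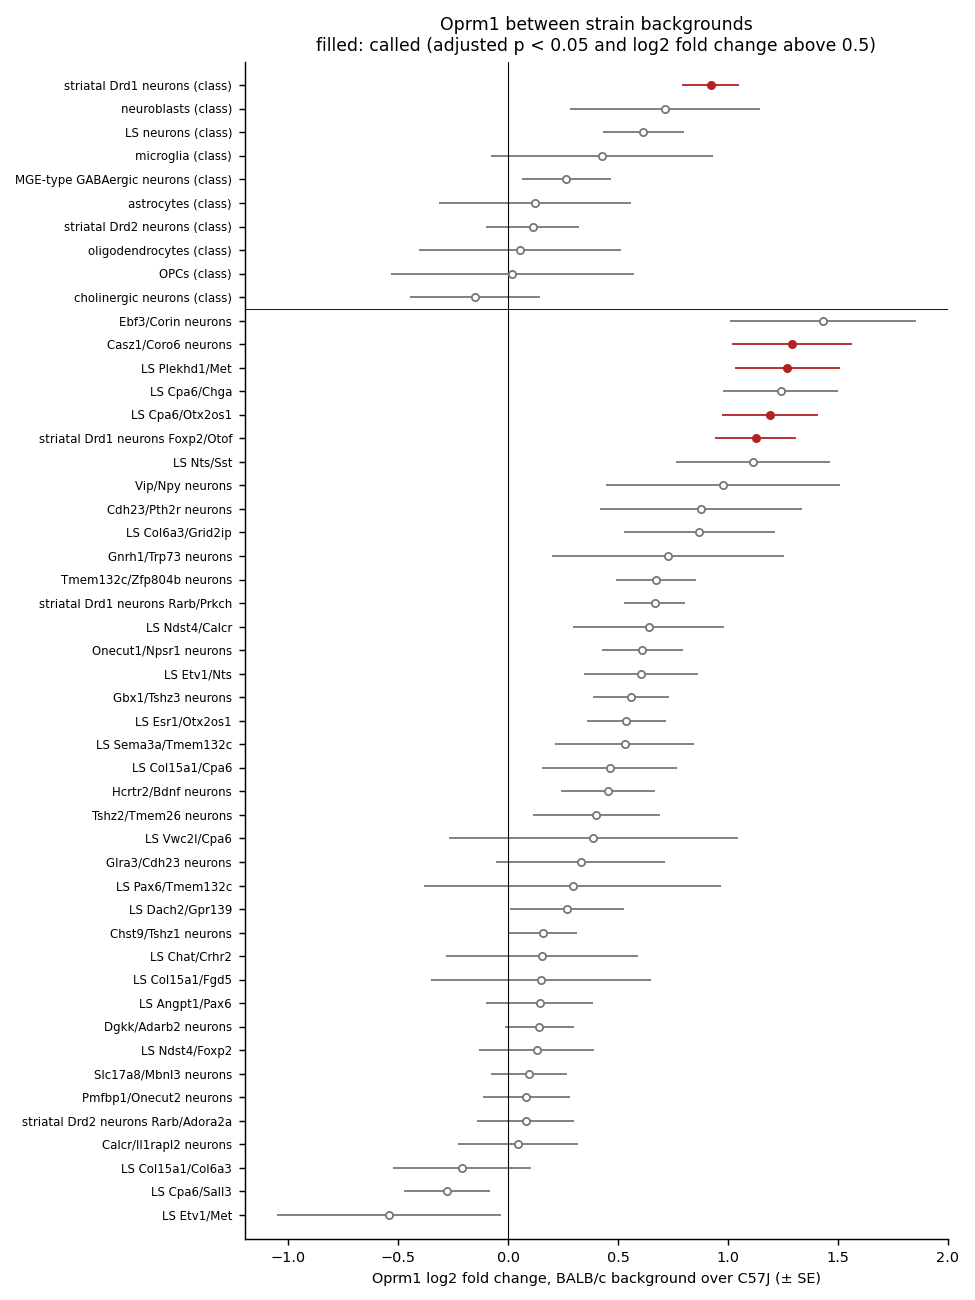
Log2 fold change of Oprm1 in the BALB/c background over C57J in the classes (upper part) and clusters (lower part) shown, with bars of 1 SE and filled points for 5 calls. Most points lie above 0, while LS Etv1/Met is the lowest at -0.54 and cholinergic neurons, 1 cluster drawn as a class, are at -0.15.

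Ipcef1, whose introns overlap Oprm1 on the other strand, was called in none of the classes or clusters it was tested in. In the Drd1 class its log2 fold change was 0.41 ± 0.21 (adjusted p = 0.568) and in the Foxp2/Otof cluster 0.62 ± 0.35 (adjusted p = 0.721). In LS Plekhd1/Met it was 0.95 ± 0.41 (adjusted p = 0.542) and in LS Cpa6/Otx2os1 -0.20 ± 0.45 (adjusted p = 0.960). In Casz1/Coro6 neurons it had too few counts to be tested, with 39 UMIs in all. Its log2 fold change was above 0 in 15 of 22 LS clusters and in 12 of 16 other neuron clusters tested, up to 1.74, mostly the direction of Oprm1. Its unadjusted p was under 0.05 in 1 of 7 classes, 6 of 22 LS clusters and 2 of 16 other neuron clusters tested. These counts were not set against all genes. What part reads of the one gene had in the values of the other was not tested.

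Oprk1, Oprd1 and Oprl1 were called in none of the classes or clusters they were tested in. In either direction 0.511% of all tests in classes, 0.938% in LS clusters and 0.366% in other neuron clusters were calls. Low counts kept these receptors out of many fits. Oprk1 was tested in 5 of 13 classes, 8 of 29 LS clusters and 6 of 24 other neuron clusters. For Oprd1 these numbers were 3, 3 and 4, and for Oprl1 8, 26 and 18. Among these tests Oprk1 had an unadjusted p under 0.05 in 2 classes, 2 LS clusters and 2 other clusters. Oprl1 did so in 1 class and 1 LS cluster and Oprd1 in 0, and these counts were not set against all genes. Oprk1 in striatal Drd1 neurons came closest, with a log2 fold change of -1.05 ± 0.21 (adjusted p = 0.0514). Its Rarb/Prkch cluster had -1.48 ± 0.31 (adjusted p = 0.0735). In that cluster nude was at 44.2 CPM and BALB/c at 18.4 CPM (40 and 31 UMIs), a difference that was not tested. Without nude, which leaves 1 library of the BALB/c background, Oprk1 had -1.32 in the class and -2.11 in this cluster. Without C57J 2 it had -1.40 in the cluster, and there strain background and batch cannot be told apart. Oprm1 in the same cluster had 0.67 (adjusted p = 0.0735), which puts the kappa and mu receptors on opposite sides of 0, with neither called. Both values are from UMIs summed over the cluster. Of its 973 nuclei, 499 had an Oprm1 UMI and 258 an Oprk1 UMI, so they do not describe single nuclei. Without the Gpr149/Drd3 cluster in the class Oprk1 had -1.22 (adjusted p = 0.0186), an alternative chosen after seeing the data. Oprd1 in cholinergic neurons had 0.03 (adjusted p = 0.992), with 88.3 and 104 CPM in the BALB/c background and 92.3 and 103 CPM in C57J. Oprl1 in OPCs had -0.79 ± 0.25 (adjusted p = 0.459).

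Of the 43 other genes of the opioid pathway, grouped into peptide precursors, peptidases, G protein subunits, RGS proteins, channels, adenylyl cyclases, receptor kinases and arrestins, and the scavenger receptor Ackr3, 42 could be tested in LS neurons. One, Pnoc, was called higher and 0 lower, 23 had a log2 fold change above 0, and the median was 0.03. By an unadjusted p under 0.05, 7 of the 42 passed, a count that was not set against all genes. Pnoc rose by 1.01 ± 0.15 (edgeR, adjusted p = 0.0229; 0.954% of genes called higher), from 12 and 11.3 CPM in C57J to 20.6 in nude and 25.2 in BALB/c. The groups did not overlap, which was not set against all genes either. The call was lost without nude (1.16) and without BALB/c (0.85), fits with 1 library of the BALB/c background. Pnoc was above 0 in all 25 LS clusters tested, a count that was not set against all genes. It was called in 4 of them, against 0.421% of all tests in LS clusters. These were LS Col15a1/Col6a3 (1.49), LS Etv1/Nts (1.49), LS Met/Grid2ip (1.96) and LS Etv1/Met (2.20), the LS cluster with the highest Oprk1 level. Oligodendrocytes had 18, 12.2, 26.8 and 11.3 CPM of Pnoc, a range that overlapped that of LS neurons.

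The other peptide precursors were not called in LS neurons. Pdyn had a log2 fold change of -0.88 ± 0.31 (adjusted p = 0.25), from 4.26 and 2.51 CPM in C57J to 1.84 and 1.76 CPM. Penk had -0.09 ± 0.20 (adjusted p = 0.894) and Pomc -0.27 ± 0.33 (adjusted p = 0.783). All 6 adenylyl cyclase genes were above 0, between 0.06 and 0.23, and none was called. Of the 6 channel genes 5 were above 0, up to 0.55, and none was called. Other groups leaned the other way. Of the 8 RGS genes 6 were below 0, down to -0.53, and of the 6 receptor kinase and arrestin genes 4 were, with none called. Rgs17, the gene most like Oprm1 in pattern, had 0.21 ± 0.08 (adjusted p = 0.275).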

How the data were processed

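For each of the 4 libraries the authors deposited raw UMI counts per gene and barcode from Cell Ranger 7.0.1 and the mm10 build, both named in the submitters' processing notes. Whether intronic reads were counted is not given in the sources used here. Barcodes with 200 to 6000 genes, 300 to 50000 UMIs and under 2% mitochondrial UMIs were kept. Simulated neighbours marked 6235 doublets, which were removed. Nuclei were clustered with Leiden (leidenalg 0.10.2, resolution 1) into 79 clusters, without the 47 receptor and pathway genes and without 103 genes that differed between strain backgrounds. Classes were named from marker lists. A cluster of high mitochondrial and stress genes stayed unnamed and out of the order of levels, and 3 clusters were kept out of the LS class by a limit set after seeing the data, among them Tmem132c/Zfp804b (76 to 137 nuclei a library) and Calcr/Il1rapl2 (63 to 152). Some clusters are counted but not reported individually here. Counts were summed per library and class, filtered with filterByExpr, scaled by TMM and tested with edgeR 4.0.16 in R 4.3.3 (Benjamini-Hochberg over all genes). SE is the size of the log2 fold change over the square root of F. The test was tried on simulated counts for LS neurons, where it called 72% of genes changed by a log2 fold of 1 and 99% at 2 (18300 genes, 7 false calls). For striatal Drd1 neurons it called 54.5% and 98% (11000 genes, 13 false calls). The simulation gave all genes the same dispersion and no difference between nude and BALB/c, unlike the data. All 4 genes matched the annotation by identifier. The receptors, lists and tests were chosen with earlier results of these data known. Genes named beyond the receptors are the peptide precursors, pathway genes called in LS neurons and the 5 genes most like each receptor. Every member of the pathway list was in the count tables. Alternatives were DESeq2 1.42.0, no filter on low counts, thinning to 1000 UMIs, the limit on fold left out, stricter quality limits, doublets kept, other cluster seeds and resolutions, and leaving out each library.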

Additional observations from a re-analysis of the deposited data

Results flagged for a closer look

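Oprd1 had log2 fold changes of opposite sign in LS neurons and striatal Drd2 neurons under the same strain comparison. The pair was picked by searching the receptors and fitted classes for groups that separated in opposite directions. With 2 libraries against 2, groups can separate without a difference, so the pair is a selected description. In LS neurons the log2 fold change of the BALB/c background against C57J was 0.265, with both libraries of the BALB/c background (2.24 and 2.57 CPM) above both of C57J (2.12 and 1.98 CPM). In striatal Drd2 neurons it was -0.3404, with 15.4 and 16.3 CPM below 23.0 and 17.0 CPM. Neither was called, the difference between the classes was not tested, and the Drd2 values rest on 84 UMIs in all.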

How the results depend on the processing

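No paired analysis was made, because each library was a separate pool of mice of 1 strain and the labels paired no libraries between strains. The count of genes called in LS neurons, 405, was 641 by DESeq2, 1050 with no filter on low counts and 196 with nuclei thinned to 1000 UMIs, and 55 to 1103 with 1 library left out. Oprm1 in LS neurons, 0.61 and not called, passed by DESeq2 (0.61, adjusted p = 0.0466) and without the filter (0.62, adjusted p = 0.00569). It ran from 0.36 to 0.90 with 1 library left out, fits that keep only 1 library in 1 group. Oprk1 in LS neurons ran from -0.38 to -0.25 with 1 library left out and Oprd1 from 0.15 to 0.37. Oprl1 in LS neurons turned to -0.028 after thinning and ran from -0.16 to 0.21 with 1 library left out.

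Oprm1 was called in 6 classes or clusters, in 2 by DESeq2 and in 4 to 9 with 1 library left out. By DESeq2 the adjusted p was 0.239 in LS Cpa6/Otx2os1, 0.195 in LS Plekhd1/Met and 0.242 in Casz1/Coro6 neurons. Oprk1, called in 0, was called in up to 3 with 1 library left out, among them striatal Drd1 neurons (-1.32, adjusted p = 0.00755) and the Rarb/Prkch cluster (-2.11, adjusted p = 1.01e-09) without nude. Oprd1 in cholinergic neurons, 0.03, was -0.0057 by DESeq2 and -0.13 to 0.13 with 1 library left out. The pathway genes called numbered 0 to 2 with 1 library left out. After thinning Pnoc in LS neurons had 0.77 (adjusted p = 0.0952).

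The Oprd1 level of cholinergic neurons, 96.9 CPM, was 87.0 CPM after thinning and 88.6 CPM as a mean over nuclei. The shares of LS nuclei with a UMI at full depth, 17.3% for Oprm1, 4.42% for Oprk1, 1.82% for Oprd1 and 14.9% for Oprl1, exceeded those after thinning. The ratio of co-detection of Oprm1 and Oprl1 in BALB/c LS nuclei, 2.68 from 6 nuclei, was 1.06 at full depth. The causes of these changes were not tested. Counting error limits clusters with few UMIs, such as cholinergic neurons with 28 to 53 nuclei in a library.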
